A study of Mus musculus with 12 samples.

Results

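The genes described here belong to cholesterol and fatty acid synthesis, and their RNA was counted in CD4+ (helper) T cells sorted from mouse lungs. Members were chosen by symbol from a fixed list of 37 names, in which Sc4mol is the older name of Msmo1. The count table of 19434 genes held 36 of them, with Msmo1 under the name Sc4mol. All mice were C57BL/6NJ of both sexes, with no altered allele named in the labels, and lungs were taken 48 h after an aspiration. Juvenile mice aspirated 2800000 colony-forming units of E. coli (JE) or phosphate-buffered saline (PBS, JP) on day 15 of life. Neonatal mice aspirated the same dose of E. coli (NE) or PBS (NP) on day 5. Each group held 3 libraries, numbered 1 to 3 in the labels, and each library pooled cells of 2 juvenile or 3 neonatal mice. The sort selects by surface protein, so its libraries hold CD4+ cells of every activation state together with any cell that passed the gate.

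Cholesterol is built from acetyl-CoA through mevalonate and squalene, and long-chain fatty acids are built from the same precursor and then lengthened and desaturated. Transcription factors of the sterol regulatory element-binding protein (SREBP) family switch on most of these enzymes when sterols in the endoplasmic reticulum are low: Scap carries the SREBP precursor to the Golgi, where it is cleaved, and the Insig proteins hold it back. Liver X receptors, which sense oxidised sterols, in turn raise the exporters Abca1 and Abcg1. T cells that start to divide need new membrane, and this pathway is known to be induced when T cells are activated.

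Promoters of the members are shown first because several of these genes rose together in juveniles. RefSeq promoter entries (GRCm38.p6, 250 bases before to 50 bases after a start) were found for 28 of the 36 members, at 37 starts. None was found for Fdps, Fdft1, Sqle, Scd1, Scd2, Fads1, Stard4 and Abcg1. In the lines that follow, bases 250 to 51 before the start are written 5′ to 3′ on the gene's strand for Hmgcs1 (chr13:119690101-119690300, + strand), Cyp51 (chr5:4104748-4104947, - strand), Hsd17b7 (chr1:169969256-169969455, - strand), Insig1 (chr5:28071162-28071361, + strand) and Elovl6 (chr3:129532136-129532335, + strand). Capitals mark CCAAT, or ATTGG where it lies on the other strand, and the word TCACNCCAC, a form of the sterol regulatory element that SREBPs bind.
Hmgcs1: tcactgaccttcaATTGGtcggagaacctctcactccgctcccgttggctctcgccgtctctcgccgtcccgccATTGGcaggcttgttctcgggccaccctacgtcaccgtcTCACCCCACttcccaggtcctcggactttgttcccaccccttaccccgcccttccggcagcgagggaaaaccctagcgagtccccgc
Cyp51: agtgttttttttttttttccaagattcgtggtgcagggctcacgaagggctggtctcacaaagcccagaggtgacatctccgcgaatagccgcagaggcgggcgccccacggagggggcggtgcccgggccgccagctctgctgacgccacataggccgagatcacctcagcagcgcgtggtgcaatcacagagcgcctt
Hsd17b7: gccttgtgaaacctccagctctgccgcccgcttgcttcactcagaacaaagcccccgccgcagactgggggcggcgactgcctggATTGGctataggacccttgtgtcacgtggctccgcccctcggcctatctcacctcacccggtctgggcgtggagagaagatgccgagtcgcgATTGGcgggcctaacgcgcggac
Insig1: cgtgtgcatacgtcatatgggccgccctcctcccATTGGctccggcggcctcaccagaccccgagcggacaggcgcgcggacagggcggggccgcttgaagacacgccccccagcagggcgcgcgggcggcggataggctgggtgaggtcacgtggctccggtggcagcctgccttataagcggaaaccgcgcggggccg
Elovl6: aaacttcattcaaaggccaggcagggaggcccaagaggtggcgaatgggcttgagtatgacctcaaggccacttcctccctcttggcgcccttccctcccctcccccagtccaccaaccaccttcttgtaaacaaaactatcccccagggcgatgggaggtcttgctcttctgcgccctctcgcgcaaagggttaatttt

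Searched on both strands over the whole 300 bases, TCACNCCAC was in 1 of the 37 member promoters, that of Hmgcs1, where it begins 137 bases before the start. It was in 1.24% of all 32851 RefSeq promoters. The E-box TCACGTGA was in 0 of the 37, against 0.974% of all promoters. CCAAT, the core word of the factor NF-Y, was in 62.2% of member promoters, against 37.4% of all. GGGCGG, the core word of Sp1, was in 75.7% of member promoters, against 35.7% of all. Elovl6, which had the smallest adjusted p among the members in both responses to E. coli, held none of these 4 words in its window. Matches of different words that share bases were each counted, and a match describes letters, not a bound site. Near forms of TCACNCCAC were not searched, so a promoter without this word may still hold a sterol regulatory element.

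Libraries held 6035445 to 8129983 counts, and a count of 3, taken as the floor, was worth 0.374 to 0.494 CPM, counts scaled to the size of each library. All 36 members passed the filter on low counts. For 35 of them every library reached the filter's level, whereas Fads2 reached it in 3 juvenile E. coli, 2 juvenile PBS, 1 neonatal E. coli and 0 neonatal PBS libraries, so it was tested mainly through the group in which it was high. The T cell markers Cd3e and Cd4 averaged 1622 ± 87.0 and 1082 ± 49.6 CPM in juvenile E. coli libraries (SD, n = 3), and were at 1421 CPM or more and 1028 CPM or more in all 12 libraries. Per kilobase of annotated exon and averaged over all libraries, the members ran from 80.6 CPM for Elovl5, an elongase of polyunsaturated fatty acids, and 42.1 CPM for Acly, which makes cytosolic acetyl-CoA, down to 1.67 CPM for the desaturase Scd1 and 0.525 CPM for the desaturase Fads2. Cyp51, the sterol demethylase, was the third at 18.7 CPM per kilobase and Insig1 the fourth at 16.3 CPM per kilobase.

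In juveniles, of 18 sterol enzymes, Hmgcs1, Sqle, Cyp51, Hsd17b7 and Sc5d were higher 48 h after E. coli than after PBS. The SREBP-retaining protein Insig1 and 3 genes of fatty acid elongation and desaturation were also higher. The desaturase Scd2 and the exporter Abcg1 were lower. Of the 36 members, 9 (25%) rose and 2 (5.56%) fell with an adjusted p under 0.05 in edgeR's quasi-likelihood test over all tested genes, against 15.4% and 9.42% of the 11062 genes tested. Among the 9, Fads2 passed the filter on low counts mainly through the juvenile E. coli libraries. With upper-quartile scaling the calls over all genes were 1468 higher and 1415 lower, against 1705 and 1042 with the scaling used here. They were 1171 and 628 without juvenile E. coli library 1 and 1143 and 513 without juvenile E. coli library 2. The median log2 fold change of the members was 0.26, against -0.01 over all tested genes, and 24 of the 36 were above 0. Without juvenile E. coli library 1 the members' median was 0.14. In bulk RNA of a pool, a change in the share of cells that use a gene and a change in RNA per cell cannot be told apart.

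**Figure D1:**
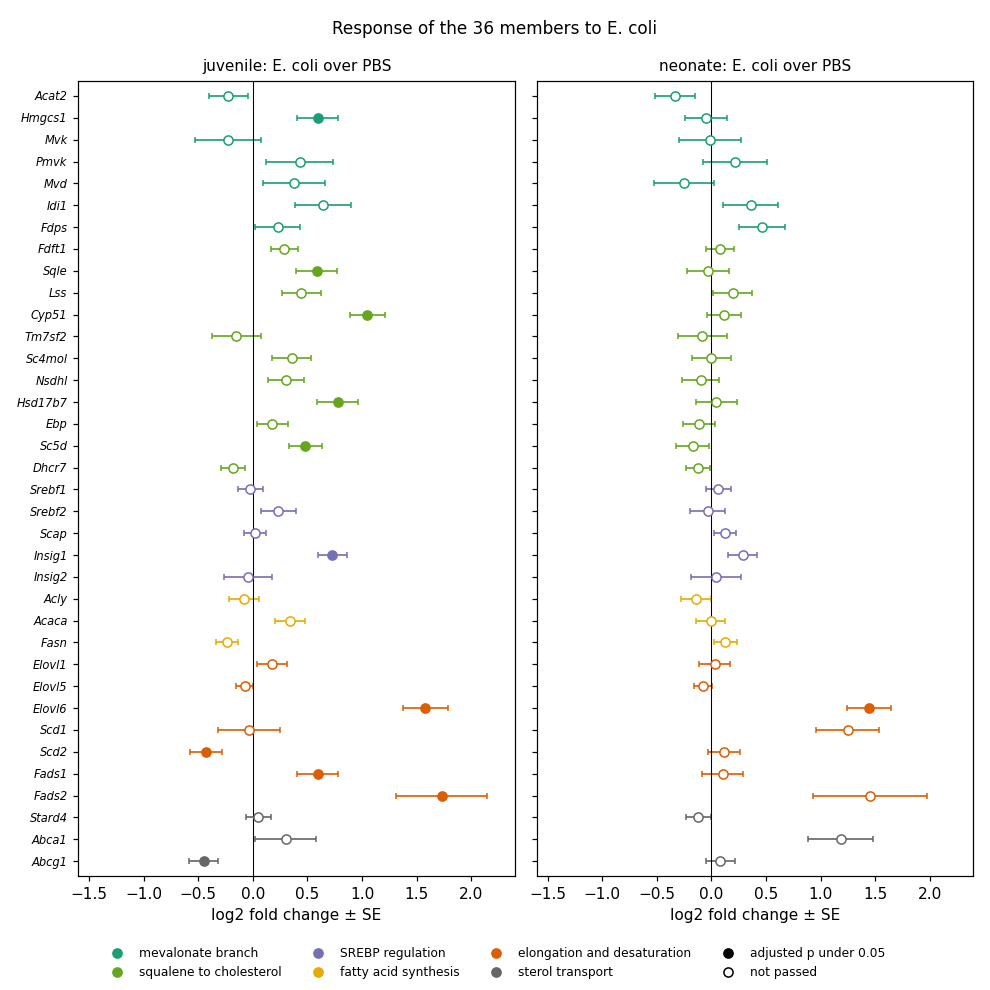
Log2 fold change of each of the 36 members for E. coli over PBS in juveniles (left) and neonates (right), with bars of 1 SE, from edgeR; colours give the role and filled points an adjusted p under 0.05. In juveniles 11 points are filled, in neonates only Elovl6.

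Among the 7 enzymes of the mevalonate branch, 1 rose (14.3%) and 0 fell in juveniles, against 15.4% and 9.42% of all tested genes. Hmgcs1, the cytosolic HMG-CoA synthase that feeds this branch, was at 71.2, 62.3 and 45.0 CPM in juvenile E. coli libraries, 36.7, 52.2 and 29.3 CPM in juvenile PBS libraries, 45.2, 38.4 and 44.1 CPM in neonatal E. coli libraries and 47.9, 44.9 and 39.2 CPM in neonatal PBS libraries. Hmgcs1 rose in juveniles with a log2 fold change of 0.59 ± 0.19 (SE, adjusted p = 0.0319, edgeR), although juvenile E. coli library 3, at 45.0 CPM, lay below juvenile PBS library 2, at 52.2 CPM. The other 6 (Acat2, Mvk, Pmvk, Mvd, Idi1 and Fdps) had log2 fold changes from -0.23 to 0.64. The largest of these, 0.64 ± 0.26 for the isopentenyl diphosphate isomerase Idi1, had an adjusted p of 0.0804.

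Of the 11 enzymes that turn squalene precursors into cholesterol, 4 rose (36.4%) and 0 fell in juveniles, against 15.4% and 9.42% of all tested genes. At an unadjusted p under 0.05 edgeR also had 0 lower. Cyp51, which removes a methyl group from lanosterol, was at 133, 133 and 86.3 CPM in juvenile E. coli libraries, 56.3, 67.1 and 47.0 CPM in juvenile PBS libraries, 78.4, 75.4 and 88.7 CPM in neonatal E. coli libraries and 73.9, 76.0 and 73.7 CPM in neonatal PBS libraries. All 3 juvenile E. coli libraries lay above all 9 others except neonatal E. coli library 3, which was slightly above juvenile E. coli library 3. Cyp51 rose in juveniles with a log2 fold change of 1.05 ± 0.16 (SE, adjusted p = 0.000206, edgeR), and the fitted fold was 2.07.

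Hsd17b7, a keto reductase of cholesterol synthesis, was at 29.6, 31.5 and 20.7 CPM in juvenile E. coli libraries and 12.7, 17.1 and 18.0 CPM in juvenile PBS libraries. In neonates it was at 21.3, 17.1 and 17.7 CPM in E. coli libraries and 19.0, 20.6 and 14.7 CPM in PBS libraries. Hsd17b7 rose in juveniles with a log2 fold change of 0.78 ± 0.19 (SE, adjusted p = 0.00763, edgeR), and the juvenile groups did not overlap. Sqle, the squalene epoxidase that is a rate-limiting step, was at 50.2, 44.6 and 26.1 CPM in juvenile E. coli libraries, 24.5, 27.4 and 28.7 CPM in juvenile PBS libraries, 29.0, 25.8 and 28.8 CPM in neonatal E. coli libraries and 31.4, 24.7 and 29.2 CPM in neonatal PBS libraries. Sqle rose in juveniles with a log2 fold change of 0.59 ± 0.19 (SE, adjusted p = 0.0336, edgeR), with juvenile E. coli library 3 inside the range of the PBS libraries. Sc5d, the lathosterol desaturase, was at 48.2, 41.4 and 37.7 CPM in juvenile E. coli libraries, 29.1, 37.7 and 24.5 CPM in juvenile PBS libraries, 34.8, 28.2 and 34.0 CPM in neonatal E. coli libraries and 35.7, 36.9 and 36.6 CPM in neonatal PBS libraries. Sc5d rose in juveniles with a log2 fold change of 0.48 ± 0.15 (SE, adjusted p = 0.0278, edgeR), and the lowest juvenile E. coli library and the highest juvenile PBS library were both at 37.7 CPM. The remaining 7 (Fdft1, Lss, Tm7sf2, Sc4mol, Nsdhl, Ebp and Dhcr7) had log2 fold changes from -0.18 for Dhcr7 to 0.44 for the lanosterol synthase Lss and did not pass the test.

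**Figure D2:**
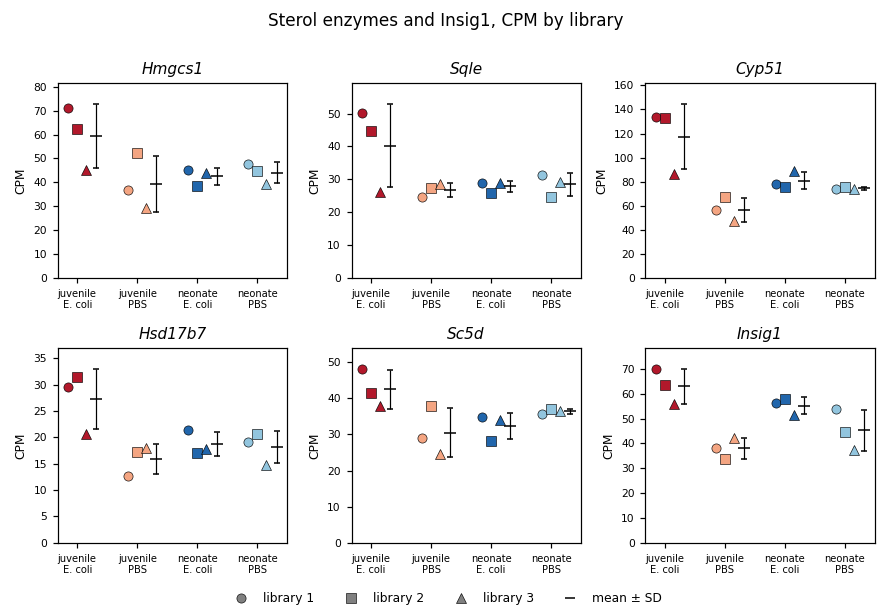
CPM of 5 sterol enzymes and Insig1 in each library (symbols give the library number), by group, with mean ± SD of 3 libraries beside them; each axis starts at 0. Juvenile E. coli libraries 1 and 2 are the highest of the 12 for Hmgcs1, Sqle, Cyp51, Hsd17b7, Sc5d and Insig1, and library 3 lies lower.

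Of the 5 genes of SREBP regulation, only Insig1 passed the test in juveniles (20% higher, against 15.4% of all tested genes). It is itself an SREBP target, and it was at 69.9, 63.4 and 55.8 CPM in juvenile E. coli libraries, 38.0, 33.8 and 42.2 CPM in juvenile PBS libraries, 56.2, 58.1 and 51.5 CPM in neonatal E. coli libraries and 54.0, 44.4 and 37.6 CPM in neonatal PBS libraries. Insig1 rose in juveniles with a log2 fold change of 0.73 ± 0.14 (SE, adjusted p = 0.00123, edgeR), and the juvenile groups did not overlap. The transcripts of the factors themselves and of their escort had log2 fold changes of -0.02 ± 0.12 for Srebf1, 0.23 ± 0.16 for Srebf2 and 0.02 ± 0.10 for Scap, and Insig2 had -0.05 ± 0.22. Srebf2 was at 63.3 CPM in juvenile PBS library 2 and at 107 to 133 CPM in the other 11 libraries.

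The 3 genes of the steps that lead from citrate to palmitate did not pass the test in juveniles. Acly had a log2 fold change of -0.08 ± 0.14, the acetyl-CoA carboxylase Acaca 0.34 ± 0.13 (adjusted p = 0.0785) and the fatty acid synthase Fasn -0.24 ± 0.10 (adjusted p = 0.113), all from edgeR. Of the 7 genes of elongation and desaturation, 3 rose (42.9%) and 1 fell (14.3%), against 15.4% and 9.42% of all tested genes. Among the 3 was Fads2, tested mainly through the group in which it was high. Elovl1 (0.17 ± 0.14), Elovl5 (-0.08 ± 0.08) and Scd1 (-0.04 ± 0.28) did not pass the test. Elovl6, which lengthens palmitate to stearate, was at 86.6, 95.6 and 155 CPM in juvenile E. coli libraries, 42.1, 34.3 and 36.3 CPM in juvenile PBS libraries, 145, 210 and 137 CPM in neonatal E. coli libraries and 58.3, 64.3 and 58.5 CPM in neonatal PBS libraries. Within each age, every E. coli library lay above every PBS library. Elovl6 rose in juveniles with a log2 fold change of 1.58 ± 0.20 (SE, adjusted p = 6.11e-05, edgeR), a fitted fold of 2.99, the smallest adjusted p among the members.

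Fads1 and Fads2 encode the desaturases that make polyunsaturated fatty acids. Fads1 was at 24.1, 30.1 and 20.7 CPM in juvenile E. coli libraries, 17.6, 13.5 and 18.5 CPM in juvenile PBS libraries, 18.6, 22.2 and 16.6 CPM in neonatal E. coli libraries and 21.7, 16.0 and 15.8 CPM in neonatal PBS libraries. Fads1 rose in juveniles with a log2 fold change of 0.59 ± 0.18 (SE, adjusted p = 0.0282, edgeR), without overlap of the juvenile groups. Fads2 was at 4.53, 3.87 and 3.18 CPM in juvenile E. coli libraries, 0.576, 1.48 and 1.43 CPM in juvenile PBS libraries, 1.79, 1.25 and 1.15 CPM in neonatal E. coli libraries and 0.595, 0.278 and 0.653 CPM in neonatal PBS libraries. Fads2 rose in juveniles with a log2 fold change of 1.73 ± 0.42 (SE, adjusted p = 0.00736, edgeR), a fitted fold of 3.32 on few counts, with juvenile PBS library 1 close to the floor of 3 counts.

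Scd2, a desaturase that makes monounsaturated fatty acids, was at 76.7, 70.0 and 83.5 CPM in juvenile E. coli libraries, 105, 105 and 101 CPM in juvenile PBS libraries, 87.9, 85.4 and 78.5 CPM in neonatal E. coli libraries and 80.6, 55.8 and 96.2 CPM in neonatal PBS libraries. Scd2 fell in juveniles with a log2 fold change of -0.43 ± 0.15 (SE, adjusted p = 0.0408, edgeR), and the juvenile groups did not overlap. Abcg1, which exports cholesterol to lipoprotein particles, was at 69.4, 77.5 and 112 CPM in juvenile E. coli libraries, 117, 113 and 123 CPM in juvenile PBS libraries, 90.8, 96.9 and 96.7 CPM in neonatal E. coli libraries and 89.7, 89.3 and 89.5 CPM in neonatal PBS libraries. Abcg1 fell in juveniles with a log2 fold change of -0.45 ± 0.13 (SE, adjusted p = 0.0232, edgeR), and its highest juvenile E. coli library, number 3, was at 112 CPM, against 113 CPM in its lowest juvenile PBS library. The exporter Abca1 (0.30 ± 0.28) and the intracellular sterol carrier Stard4 (0.05 ± 0.12) did not pass the test. Scd1 and Scd2 are paralogs, and the treatment of reads that fit both is not stated in the labels.

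**Figure D3:**
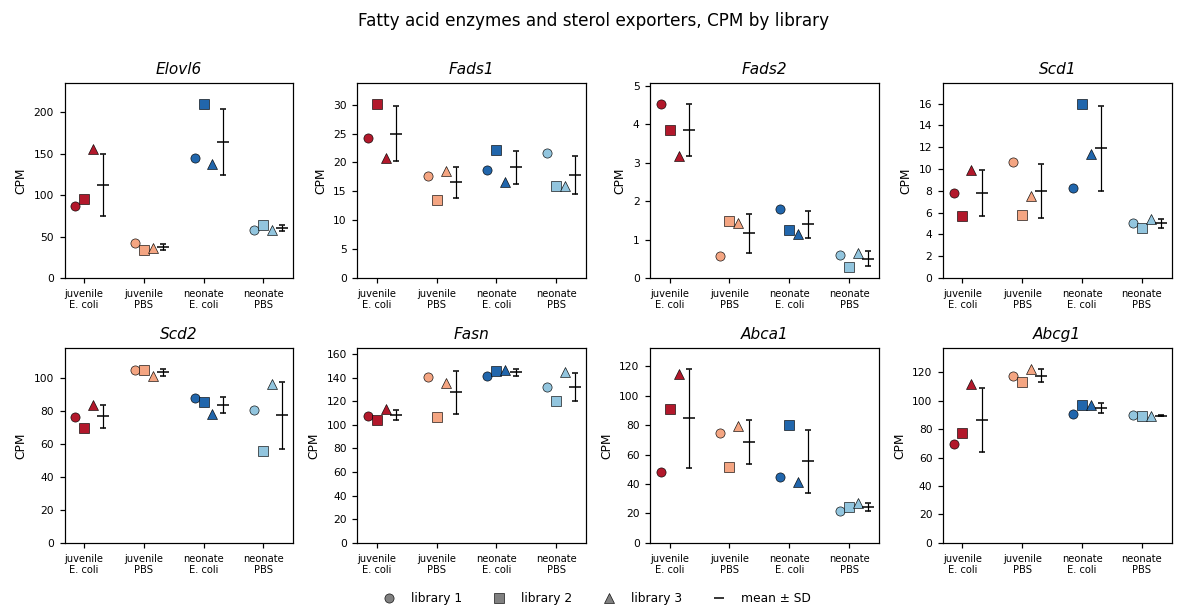
CPM in each library (symbols give the library number) of 6 fatty acid genes and the exporters Abca1 and Abcg1, by group, with mean ± SD of 3 libraries; each axis starts at 0. Elovl6 is higher after E. coli than after PBS at both ages, Abcg1 is highest in juvenile PBS libraries, and Abca1 is lowest in neonatal PBS libraries.

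The juvenile calls of Cyp51, Hsd17b7, Insig1, Elovl6 and Fads2 held in all 14 alternatives tried. Fads2 passed the filter mainly through juvenile E. coli libraries, in which it was high, so its call is no separate support for a rise. Those of Hmgcs1, Sqle, Sc5d, Scd2, Fads1 and Abcg1 were lost without juvenile E. coli library 1, without juvenile E. coli library 2 and without juvenile PBS library 1, each of which left 5 members higher and 0 lower. Without juvenile PBS library 3 the calls of Hmgcs1, Sc5d, Scd2 and Abcg1 were lost, so that 0 were lower, and without juvenile PBS library 2 those of Scd2 and Fads1 were lost. Without juvenile E. coli library 3, 13 members were higher.

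That library stood apart from the other 2 of its group in these genes, and over all tested genes too. Chi-square over degrees of freedom was 13.7 between libraries 1 and 3 and 7.24 between libraries 2 and 3. It was 4.99 between libraries 1 and 2. In the juvenile PBS group, library 2 stood further apart, at 14.7 from library 1 and 19.9 from library 3. Between juvenile PBS libraries 1 and 3 the value was 4.57. Juvenile E. coli library 3 was the lowest of the 3 for 11 of 11 enzymes from squalene to cholesterol and for 25 of the 36 members, against 39.6% of all tested genes. For the squalene to cholesterol enzymes the median ratio of library 3 to the mean of libraries 1 and 2 was 0.730, with a range of 0.550 to 0.843, and over all tested genes it was 0.985. It was the highest of the 3 for 10 members, among them Elovl6 with a ratio of 1.70, Abca1 with 1.64, Abcg1 with 1.52 and Scd1 with 1.47. Of the 7 mevalonate enzymes it was the highest for Mvk (1.65), Mvd (1.39) and Acat2 (1.21) and the lowest for the other 4. The summed level of the 11 enzymes was 511, 478 and 349 CPM in juvenile E. coli libraries 1, 2 and 3, and 316, 343 and 312 CPM in juvenile PBS libraries. A library that was lowest for most of these enzymes was also found in neonates, with a smaller gap. Neonatal E. coli library 2 was the lowest of its group for 9 of these 11 enzymes, against 32.7% of all tested genes. Its sum of the 11 was 324 CPM, against 349 and 364 CPM in neonatal E. coli libraries 1 and 3.

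**Figure D4:**
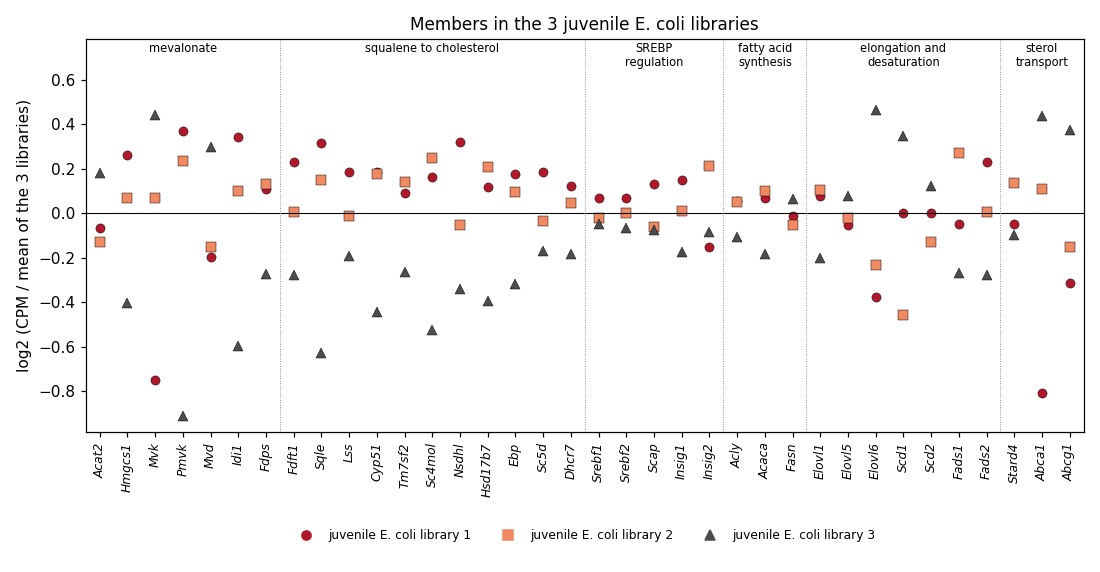
Log2 of the CPM of each member in each of the 3 juvenile E. coli libraries over the mean of the 3, ordered by role. Library 3 (triangles) is the lowest for all 11 genes from squalene to cholesterol and the highest for 10 members, among them Mvk, Elovl6, Abca1 and Abcg1.

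Genes of dividing cells moved with this contrast. The summed level of 16 cycling-cell markers was 5932, 5012 and 3976 CPM in juvenile E. coli libraries and 1945, 3252 and 1910 CPM in juvenile PBS libraries. Of the 16, 13 rose, against 15.4% of all tested genes. Juvenile E. coli library 3 was thus the lowest of its group, and juvenile PBS library 2 the highest of its group, in both the cycling markers and the sum of the 11 sterol enzymes. In neonatal libraries the cycling sum was 3730 to 4080 CPM after E. coli and 3982 to 4929 CPM after PBS, beside sums of 324 to 364 CPM and 344 to 352 CPM for the 11 sterol enzymes. The part of dividing cells in the juvenile result was not tested.

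Markers of other cells were counted as well, against 15.4% of all tested genes higher and 9.42% lower. Those of monocytes and macrophages summed to 479 to 901 CPM in juvenile E. coli libraries and 219 to 452 CPM in juvenile PBS libraries, with 11 of 16 tested markers higher and 2 lower. Dendritic cell markers summed to 627 to 794 CPM and 287 to 403 CPM in the same groups, with 7 of 11 higher. Lung epithelial markers summed to 133 to 251 CPM and 78.0 to 89.6 CPM, with 2 of 10 tested higher, near the share of all tested genes. Of the 8 endothelial markers 5 of 7 tested were higher and 1 lower, with sums of 226 to 247 CPM and 227 to 244 CPM. In juvenile PBS libraries 2 of the 8 were at 0. The 12 neutrophil markers summed to 9.91 to 22.9 CPM and 0.33 to 4.03 CPM, and 7 of the 12 were at 0 in all juvenile PBS libraries. Only 4 of them were tested, and 3 of these were higher. Neutrophil markers could pass the filter through the E. coli libraries, so this count is no separate support for a rise. None of the monocyte, dendritic cell and epithelial markers counted was at 0 in all libraries of a group. Csf1r, which defines monocytes and macrophages, was at 46.3, 101 and 67.1 CPM in juvenile E. coli libraries and 46.5, 15.2 and 36.7 CPM in juvenile PBS libraries, and Sftpc, which defines type II epithelial cells, was at 2.26 to 3.18 CPM and 1.28 to 2.16 CPM. Markers of T cell identity summed to 4832 to 5174 CPM and 5904 to 6520 CPM, and 5 of 9 fell. Their part in the members' changes was not tested.

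In neonates, Elovl6 was the only member that rose after E. coli and passed the test, and no sterol enzyme passed. With 1 of 36 higher (2.78%) and 0 lower, the background was 1.05% and 0.145% of genes tested, or 116 and 16 genes. That background rested on few calls: 61 genes were higher and 1 lower without neonatal E. coli library 2, 54 and 2 without neonatal PBS library 1, and 52 and 3 without neonatal PBS library 2. The lower count was also 6 without neonatal E. coli library 1, 25 without neonatal E. coli library 3 and 8 without neonatal PBS library 3. By edgeR, 5 members had a higher level at an unadjusted p under 0.05 and 0 a lower one, and DESeq2 and limma voom also called 0 lower. Elovl6 rose in neonates with a log2 fold change of 1.44 ± 0.20 (SE, adjusted p = 0.00243, edgeR), a fitted fold of 2.72, and this call held in all 14 alternatives. Beside it, 3 of 4 tested neutrophil markers (12 listed) and 1 of 16 monocyte and macrophage markers rose. Of the 12 neutrophil markers 4 were at 0 in all neonatal PBS libraries, and markers could pass the filter through the E. coli libraries. The sum of the 12 was 10.3 to 57.1 CPM in neonatal E. coli and 0.833 to 3.42 CPM in neonatal PBS libraries. The monocyte and macrophage sum was 338 to 590 CPM and 210 to 368 CPM. The part of these cells was not tested. The 11 enzymes from squalene to cholesterol had log2 fold changes from -0.17 to 0.19 and the 7 of the mevalonate branch from -0.33 to 0.46. Cyp51 had 0.12 ± 0.16 and Insig1 0.28 ± 0.14.

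Scd1 and Abca1 did not pass the test in neonates, though their groups did not overlap. The neonatal groups of Fads2, whose levels are given above, did not overlap either. Fads2 had a neonatal log2 fold change of 1.45 and did not pass the test, on few counts and with PBS levels near the floor. Scd1, a desaturase for stearate and palmitate, was at 7.80, 5.66 and 9.91 CPM in juvenile E. coli libraries, 10.7, 5.77 and 7.49 CPM in juvenile PBS libraries, 8.30, 16.0 and 11.4 CPM in neonatal E. coli libraries and 5.06, 4.58 and 5.39 CPM in neonatal PBS libraries. Its neonatal log2 fold change was 1.25 ± 0.29 (adjusted p = 0.0509, edgeR). Abca1, which loads cholesterol onto apolipoproteins, was at 48.4, 91.3 and 115 CPM in juvenile E. coli libraries, 74.9, 51.7 and 79.7 CPM in juvenile PBS libraries, 44.4, 80.2 and 41.5 CPM in neonatal E. coli libraries and 21.9, 24.2 and 27.3 CPM in neonatal PBS libraries. Its neonatal log2 fold change was 1.18 ± 0.30 (adjusted p = 0.0783, edgeR). Scd1 was highest in neonatal E. coli library 2, which also had the highest Elovl6 level. Among neonatal E. coli libraries, that library had the highest sums of monocyte and macrophage markers (590 CPM, against 338 and 350 CPM) and of neutrophil markers (57.1 CPM, against 10.3 and 17.0 CPM). Among juvenile E. coli libraries, Scd1 and Elovl6 were both highest in library 3. Its neutrophil sum was the lowest there (9.91 CPM, against 22.9 and 19.6 CPM). Its monocyte and macrophage sum was 660 CPM, against 479 and 901 CPM. The part of these cells was not tested. DESeq2 called Scd1, and limma voom, the fit without a filter and the fit of neonates alone called both Scd1 and Abca1. Without neonatal E. coli library 1, Scd1 also passed, for 2 members in all.

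The responses of the ages were compared in the same fit as a difference of differences. Of the members 1 (2.78%) had a higher and 0 a lower response in juveniles, against 5.05% and 1.94% of all tested genes. At an unadjusted p under 0.05 edgeR had 6 higher and 5 lower, while DESeq2 called 0 lower and limma voom 4. Cyp51 was the called gene. Its levels were 86.3 to 133 CPM in juvenile E. coli and 47.0 to 67.1 CPM in juvenile PBS libraries, and 75.4 to 88.7 CPM in neonatal E. coli and 73.7 to 76.0 CPM in neonatal PBS libraries. Its juvenile response exceeded its neonatal response by 0.93 ± 0.22 on the log2 scale (SE, adjusted p = 0.0197, edgeR). The call was lost without juvenile E. coli library 1 or 2, neonatal E. coli library 1 or 2, or neonatal PBS library 1 or 3, with the adjusted p up to 0.0714 over all alternatives. Without juvenile E. coli library 3, 4 members were higher (Cyp51, Hsd17b7, Sc5d and Sqle) and 2 lower (Abcg1 and Scd1), and without juvenile PBS library 2, 3 were higher (Cyp51, Hmgcs1 and Sc5d) and 2 lower (Fasn and Scd1). Without neonatal PBS library 3, 1 member, Scd2, was lower.

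Other members differed in size between the ages without passing. The difference of log2 responses was 0.65 ± 0.21 for Sc5d (adjusted p = 0.077), 0.73 ± 0.27 for Hsd17b7 (0.116), 0.64 ± 0.27 for Hmgcs1 (0.167) and 0.61 ± 0.27 for Sqle (0.189), and it was -1.28 ± 0.41 for Scd1 (0.0721) and -0.53 ± 0.19 for Abcg1 (0.107), all by edgeR. For Elovl6 it was 0.14 ± 0.28, so that its responses at both ages lay within 1 SE of each other. Beside these values, 8 of the 16 cycling markers had a higher response in juveniles, against 5.05% of all tested genes.

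After E. coli, Fdft1, Cyp51 and Fads2 were higher in juveniles than in neonates and Fasn was lower. The 3 higher members (8.33%) compare with 11.3% of all tested genes, and the 1 lower (2.78%) with 6.42%. Fads2, among the 3, passed the filter mainly through juvenile E. coli libraries. Fasn, at 107, 104 and 113 CPM in juvenile E. coli libraries, 141, 107 and 136 CPM in juvenile PBS libraries, 141, 146 and 147 CPM in neonatal E. coli libraries and 132, 121 and 144 CPM in neonatal PBS libraries, had every juvenile E. coli library below every neonatal one. Fasn was lower in juveniles, with a log2 fold change of -0.42 ± 0.10 (SE, adjusted p = 0.012, edgeR). Fdft1, the squalene synthase, was at 57.2, 49.0 and 40.3 CPM in juvenile E. coli libraries, 40.1, 42.4 and 37.6 CPM in juvenile PBS libraries, 37.1, 35.7 and 38.0 CPM in neonatal E. coli libraries and 35.4, 31.7 and 37.7 CPM in neonatal PBS libraries. Fdft1 was higher in juveniles, with a log2 fold change of 0.40 ± 0.13 (SE, adjusted p = 0.0368, edgeR). The log2 fold change for Fads2, whose levels are given above, was 1.45 ± 0.40 (adjusted p = 0.0199) and that of Cyp51 was 0.54 ± 0.15 (adjusted p = 0.0241), with juvenile E. coli library 3 inside the neonatal range for Cyp51.

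These calls depended on single libraries. Without juvenile E. coli library 2 none of the 36 was called in either direction. Fdft1, Cyp51 and Fads2 were also lost without juvenile E. coli library 1 or neonatal E. coli library 2, which each left 1 member higher, Abca1. Without neonatal E. coli library 1 only Fads2 was higher and without neonatal E. coli library 3 only Cyp51. Without juvenile E. coli library 3, 8 were higher and 3 lower, and without neonatal E. coli library 3, 2 were lower (Elovl6 and Fasn). Over all tested genes 11.3% were higher and 6.42% lower. Dendritic cell markers summed to 627 to 794 CPM in juvenile E. coli libraries and 198 to 222 CPM in neonatal ones, with 9 of 11 higher. Of the monocyte and macrophage markers 5 of 16 were higher, with sums of 479 to 901 CPM and 338 to 590 CPM, and of the epithelial markers 2 were higher and 1 lower of 10 tested. Their part was not tested.

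Exons of Fdft1 share 774 bases, 18.3% of its exon length, with Ctsb on the opposite strand in the GENCODE annotation. The lysosomal protease gene Ctsb was far more abundant, at 546 ± 61.4 CPM in juvenile E. coli and 312 ± 14.5 CPM in neonatal E. coli libraries (SD, n = 3), and its log2 fold change between them was 0.81 ± 0.09. The library kit does not mark strand, so reads of both genes in these bases cannot be told apart, and the value of Fdft1 is uncertain. Cyp51 shares 166 exon bases, 3.76% of its own, with Akap9 on the opposite strand, which was at 401 to 493 CPM by group mean and had a difference of responses of 0.42 ± 0.11. Fdps and Tm7sf2 share 26.7% and 12.1% of their exon bases with same-strand genes, and Hmgcs1 shares 12.1% with an antisense gene. These partners are not among the counted symbols.

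**Figure D5:**
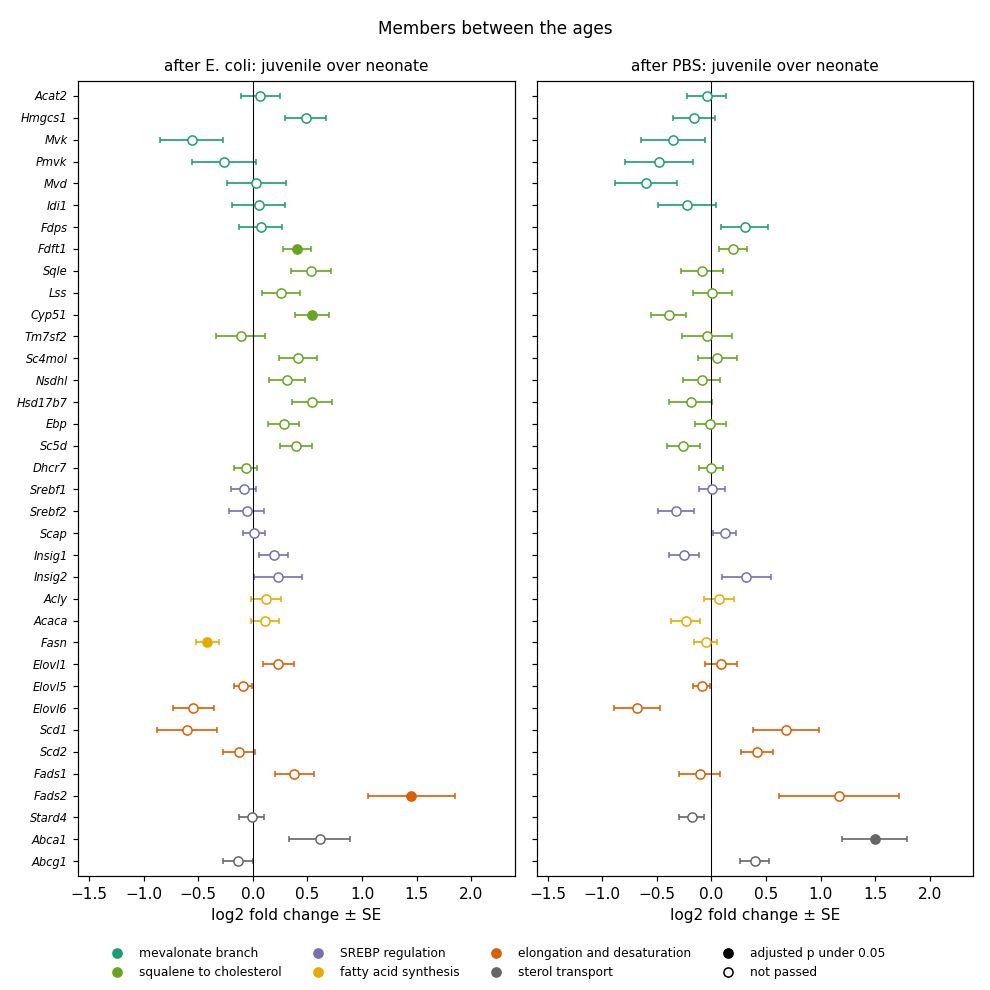
Log2 fold change of each of the 36 members for juveniles over neonates after E. coli (left) and after PBS (right), with bars of 1 SE, from edgeR; colours give the role and filled points an adjusted p under 0.05. After E. coli 4 points are filled, after PBS only Abca1.

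After PBS the ages differed in 1 member, Abca1, which was higher in juveniles (2.78% of members, against 1.75% of all tested genes), and 0 members were lower, against 2.32%. All 3 juvenile PBS libraries, at 51.7 to 79.7 CPM, lay above all 3 neonatal PBS libraries, at 21.9 to 27.3 CPM. Abca1 was higher in juveniles, with a log2 fold change of 1.50 ± 0.30 (SE, adjusted p = 0.01, edgeR), a fitted fold of 2.82, and without neonatal PBS library 1 it did not pass (adjusted p = 0.0603). Without neonatal PBS library 3 Scd2 was called as well, for 2 members higher. At an unadjusted p under 0.05 edgeR had 2 members lower, and DESeq2 and limma voom each called 1 lower, Elovl6 and Mvd. Elovl6 averaged 37.6 ± 4.04 CPM in juvenile and 60.4 ± 3.42 CPM in neonatal PBS libraries, with a log2 fold change of -0.68 ± 0.21 (adjusted p = 0.0803, edgeR). Beside Abca1, 3 of 16 monocyte and macrophage markers were higher and 1 lower, 6 of 11 dendritic cell markers were higher and 8 of 16 cycling markers lower in juvenile PBS libraries, and their part was not tested.

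Other genes of the same pathways were read from 4 lists. In the juvenile response 15.4% of all tested genes rose and 9.42% fell, and most of these lists lay near or below those shares. Among 14 other genes of sterol synthesis, uptake and SREBP processing, 1 rose and 1 fell (7.14% each). Soat1, which esterifies cholesterol for storage, had a log2 fold change of 0.61 ± 0.10 (adjusted p = 0.00044, edgeR). Ggps1, which makes geranylgeranyl diphosphate, averaged 58.7 ± 7.07 CPM in juvenile E. coli and 76.7 ± 2.64 CPM in juvenile PBS libraries (SD, n = 3), with -0.38 ± 0.11 (adjusted p = 0.0222). The call of Ggps1 was lost without juvenile E. coli library 1 or 2 or juvenile PBS library 1, with an adjusted p up to 0.12 over all alternatives. Of 15 tested genes of fatty acid and glycerolipid synthesis (18 listed), 2 rose and 2 fell (13.3% each). Dgat1, which makes triglyceride, had 1.06 ± 0.19 (adjusted p = 0.000721), and Acss2, which makes acetyl-CoA from acetate and is itself an SREBP target, had -0.81 ± 0.11 (adjusted p = 8.51e-05). Acss2 was at 45.9, 49.2 and 48.3 CPM in juvenile E. coli libraries and 82.3, 80.9 and 88.0 CPM in juvenile PBS libraries, without overlap and opposite in direction to Cyp51 and Insig1.

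Of 8 tested liver X receptor genes and targets (9 listed), 2 rose and 2 fell in juveniles (25% each), against 15.4% and 9.42% of all tested genes. The list moved in no single direction. Pltp, which transfers phospholipid between lipoproteins, had 1.48 ± 0.21 (adjusted p = 0.000118), and Arl4c, a small GTPase, had -0.56 ± 0.12 (adjusted p = 0.00378), beside -0.45 ± 0.13 for Abcg1. Of 13 genes of fatty acid oxidation, 2 rose (15.4%) and 1 fell (7.69%), near the same shares. Acadl, the long-chain acyl-CoA dehydrogenase, had 0.63 ± 0.17 (adjusted p = 0.0147), and Acadm, the medium-chain one, had -0.49 ± 0.14 (adjusted p = 0.0173). The other gene that rose, Cpt1a, had 0.24 ± 0.09 (adjusted p = 0.0497) and was lost in 9 of 14 alternatives, among them both other scalings. The call of Acadl was lost without juvenile E. coli library 1, juvenile PBS library 1 or juvenile PBS library 3. That of Acadm was lost without juvenile E. coli library 1, and without juvenile PBS library 2 and neonatal PBS library 1 together. Among the other called genes of the 4 lists, Dgat2, Tecr, Mylip and Apoe, named after their values were seen, lost their calls without single libraries of the juvenile groups: Dgat2 and Mylip without E. coli library 1 or 2 or PBS library 1, Mylip also without PBS library 3, Tecr without E. coli library 2 or 3 or PBS library 1 or 3, and Apoe without E. coli library 2 or 3 or PBS library 2. In the neonatal response edgeR called 0 genes of these 4 lists in either direction, against 1.05% of all tested genes higher and 0.145% lower. At an unadjusted p under 0.05 edgeR had 7, and DESeq2 and limma voom also called 0. The smallest p in each list were those of Soat1 (0.26 ± 0.10), Acsl3 (0.45 ± 0.20), Pltp (0.63 ± 0.24) and Cpt1a (-0.24 ± 0.09).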

How the data were processed

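Values are whole-number counts of reads per gene symbol in 12 libraries of lung CD4+ T cells, as deposited and not normalized. Per the submitters' processing notes, the authors used CASAVA 1.8.4 and the aligner STAR with build GRCm38. The gene annotation and strand setting behind the counts are not given, and the cDNA kit does not mark strand. From these counts, edgeR 4.0.16 (R 4.3.3) kept 11062 of 19434 genes with filterByExpr (minimum count 10, minimum total count 15), scaled by TMM and fitted 4 group means over all 12 libraries with a quasi-likelihood F test. Benjamini-Hochberg adjustment ran over all tested genes, with a threshold of 0.05. The biological coefficient of variation common to all genes was 0.123. Tested were E. coli over PBS in juveniles and in neonates, the difference of these responses, and juveniles against neonates after E. coli and after PBS. CPM are counts over the tested total times its TMM factor, and log2 fold changes are ± SE. Floors of 3 counts cover counting error only.

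No pair of libraries in a group matched within sampling noise (chi-square over degrees of freedom 3.96 to 19.9). Exon overlaps came from GENCODE on GRCm38. Members were named with values in every library if called in a response, in the difference or between ages (at most 4 a role in juveniles and 6 per age comparison), and other listed genes if of smallest p in their list. Members, gene lists and tests were chosen with earlier results of these data known. A gene of the sterol list is not reported here. Alternatives were DESeq2 1.42.0, limma 3.58.1 voom with sample weights, scaling by RLE or upper quartile, no filter, only the groups compared, a replicate block, each library left out in turn, and, chosen after seeing the data, juvenile PBS library 2 and neonatal PBS library 1 left out together, whose immature T cell markers summed highest in their groups. The fits were tested on simulated counts. Tables and figures used Python 3.11.15, pandas 2.3.3 and matplotlib 3.10.9.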

Additional observations from a re-analysis of the deposited data

Results flagged for a closer look

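Among the 86 tested members and genes of the 4 other lists, 3 (3.49%) had a higher and 2 (2.33%) a lower response to E. coli in juveniles than in neonates, against 5.05% and 1.94% of all tested genes, by the test of the difference itself, in edgeR with adjustment over all tested genes, as a difference of log2 fold changes ± SE (3 libraries a group). Cyp51 had 0.93 ± 0.22 (adjusted p = 0.0197), with responses of 1.05 in juveniles and 0.12 in neonates. Acss2 had -0.76 ± 0.15 (adjusted p = 0.00887), with -0.81 in juveniles and -0.05 in neonates. Arl4c had -0.66 ± 0.17 (adjusted p = 0.0313), with -0.56 in juveniles and 0.10 in neonates. Acadl had 1.01 ± 0.25 (adjusted p = 0.024), with 0.63 in juveniles and -0.37 in neonates, and Cpt1a, the carnitine transferase of fatty acid oxidation, had 0.48 ± 0.12 (adjusted p = 0.0263), with 0.24 in juveniles and -0.24 in neonates. The difference for Acss2 held in all 19 alternatives, and those of Cyp51, Arl4c, Acadl and Cpt1a were each lost when single libraries were left out, with adjusted p up to 0.0714, 0.102, 0.0869 and 0.0905 in that order over all alternatives.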

How the results depend on the processing

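The called members in the 5 contrasts and the listed genes called in the 3 response contrasts gave 515 values under the alternatives, of which 402 stayed past the threshold in the same direction, 113 kept the direction without passing and 0 reversed. Counts of called members moved more. In the juvenile response, 9 were higher with all libraries, 14 with limma voom, 5 with only the groups compared and 5 to 13 with each library left out. There 2 were lower, 1 with only the groups compared and 0 to 2 with each library left out. In the neonatal response, 1 was higher, 3 with limma voom, 2 with DESeq2, 3 with no filter, 3 with only the groups compared and 1 to 2 with each library left out. In the difference of responses, 1 was higher, 5 with limma voom, 3 without juvenile PBS library 2 and neonatal PBS library 1 together and 0 to 4 with each library left out. There 0 were lower, 4 with limma voom, 1 with no filter, 2 without those libraries together and 0 to 2 with each library left out. Between the ages after E. coli, 3 were higher, 11 with limma voom, 5 with DESeq2, 6 with only the groups compared, 6 without those libraries together and 0 to 8 with each library left out. There 1 was lower, 2 with upper-quartile scaling, 2 with DESeq2, 3 with limma voom, 2 with no filter and 0 to 3 with each library left out. After PBS, 1 was higher, 2 with limma voom and 0 to 2 with each library left out, and 0 were lower, with 1 each by DESeq2, limma voom, no filter and only the groups compared. Calls over all genes moved as well: over the alternatives they were 1143 to 2531 higher and 513 to 1949 lower in the juvenile response, 52 to 230 and 1 to 97 in the neonatal response, 266 to 1376 and 70 to 924 in the difference, 804 to 2091 and 279 to 1719 between the ages after E. coli, and 85 to 402 and 92 to 525 after PBS. The cause of these moves was not tested, except that leaving out a library leaves fewer samples. The alternative with only the groups compared does not exist for the difference of responses, which uses all 4 groups. Replicate numbers share no stated source: libraries of the same number had correlations of deviations from -0.169 to 0.223, and with the replicate block 9 members were higher in juveniles, 1 in neonates, 1 in the difference and 2 (Cyp51 and Fads2) between the ages after E. coli. With 3 pools a group, counts of about the floor, as for Fads2, limit what can be seen.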
